A study of Saccharomyces cerevisiae with 18 samples.

Results

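Chromatin immunoprecipitation (ChIP) of Flag-tagged Hmo1 from budding yeast carrying a control plasmid gave a deposited list of 1511 peaks. Of these, 364 peaks (24.1%) were narrower than 3000 bp and had their midpoint in the 500 bp upstream of the start codon of a nuclear protein-coding gene in the R64 annotation. These narrow promoter peaks were chosen by their measured position and width, so both are given as a description. They lay upstream of 436 of the 6002 nuclear coding genes (7.26%), which are called the genes served. The word states position only, and a gene not served can still lie under another Hmo1 peak. The other peaks of the list were 629 narrow peaks centred in gene bodies, 131 narrow peaks elsewhere and 387 domains of 3000 bp or more.

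Hmo1 is an abundant DNA-bending protein with HMG boxes that binds along the ribosomal DNA repeats and at the promoters of many ribosomal protein genes. There it acts in company with the factors Rap1, Fhl1 and Ifh1, which recruit the transcription machinery. Top1 and Top2 are the enzymes that relax the supercoils left by transcription and replication. TopA of Escherichia coli, expressed in yeast from a plasmid, relaxes negative supercoils only.

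The Hmo1 libraries came from Hmo1tag;top2-1;top1∆ cells with the TopA plasmid and from Hmo1tag cells with the control plasmid. The control library's title also names Top2-1 and Top1, whereas its genotype label does not, so its strain is uncertain, and TopA and genotype cannot be told apart between these libraries. Histone H3 ChIP covered 4 libraries, top2-1;top1∆ with the TopA plasmid, top2-1;top1∆ with the control plasmid, wild type with the TopA plasmid and wild type with the control plasmid. All ChIP cells had spent 2 h and 15 min at 37 °C. RNA came from hmo1∆, top2-1, hmo1∆;top2-1 and wild-type cultures after 60 min at 37 °C, and from wild type in S phase at 28 °C, 15 min after release from G1. The top2-1 allele encodes a temperature-sensitive Top2, hmo1∆ and top1∆ are deletions, and a Top2 ChIA-PET library, which reports pairs of DNA segments joined near Top2, came from wild type at 28 °C. With a single library in every group, replicate error is unknown and no p-value is given. Intervals of shares and medians treat peaks or genes within a library as separate draws. Those of single-gene ratios cover counting error only. None of them measures differences between cultures. RNA libraries held 4752471 to 14770300 expected counts. HMO1 itself had 0 counts in hmo1∆ and 0 in hmo1∆;top2-1, against 1327 in top2-1, 1152 in wild type at 37 °C and 1386 in wild type at 28 °C. The genes HMO1, TOP1 and TOP2 were not among those served.

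Of the 10 highest-scoring narrow promoter peaks 4 served ribosomal protein genes, the top pair among them. The first was a 1001 bp peak on chromosome VIII (R64, 505117 to 506117) with a score of 2.82, its midpoint 87 bp from the start codon of RPS4B, a protein of the small ribosomal subunit. The second, on chromosome VII (726516 to 727306), scored 2.74 between RPS23A, likewise of the small subunit, and YGR117C. UTP22, which acts in assembly of that subunit, followed with 2.55, and then PNS1, a choline-transporter-like protein, with 2.48. GPH1, the glycogen phosphorylase, lay under a peak of score 2.47 that also served YPR159C-A. The rest of the top 10 served YLR157W-D at 2.47, the autophagy gene ATG27 at 2.46, RPL21A at 2.45, RPS7A at 2.39 and YER137C at 2.36. Scores are the authors' own, on an unstated scale, and serve only to rank peaks within this list.

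Across all 364 narrow promoter peaks the score ran from 1.10 to 2.82 with a median of 1.42, and the width from 201 to 2974 bp with a median of 914.5 bp. The median score was 1.26 in gene-body peaks of the same width class, 1.43 in the other narrow peaks and 1.52 in the wide domains. Of the narrow promoter peaks, 217 (59.6%) reached the median score of the whole list, against 165 (26.2%) of the gene-body peaks. The share was 59.5% in the other narrow peaks and 76.5% in the wide domains, so it was not particular to promoters. The narrow promoter peaks made up 22 of the 50 highest scores in the list, and 24.1% of all its peaks. Score and width were only weakly related among them, with a rank correlation of 0.22 over the 364 peaks, which share 1 library. At the limits of the rule, the peaks of ERV1 (2942 bp) and WSC2 (2974 bp) were just inside the width limit, and those of ALG3 (3020 bp) and of AVT6 with SCS2 (3023 bp) just outside. By distance, GOT1 (499 bp) and RPL30 (500 bp) were just inside, and TRS65 (503 bp) and GPP2 (506 bp) just outside.

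**Figure D1:**
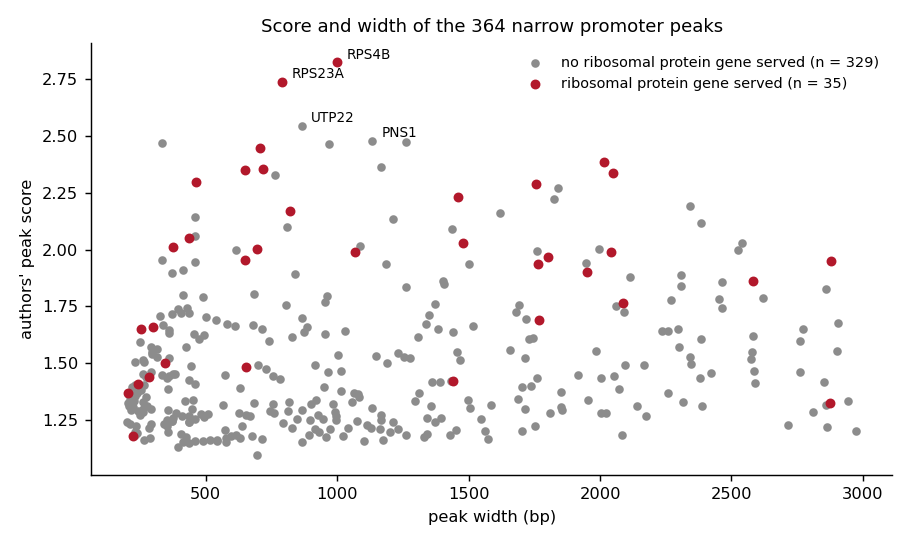
The authors' peak score (vertical axis) against peak width in bp (horizontal axis) for each of the 364 narrow promoter peaks, in red where a ribosomal protein gene was served. Red points crowd the upper part of the plot, led by RPS4B at 2.82 and RPS23A at 2.74, while low scores occur at every width.

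Most of these peaks stood before a single gene. In all, 293 served 1 gene, 70 served 2 and 1 served 3, and 65 lay between genes on opposite strands. The midpoint was a median of 244 bp from the nearest start codon, with quartiles of 113.75 and 343.25 bp, and 60 midpoints fell inside the coding frame of a neighbouring gene. The genes served shared their upstream region with a divergent neighbour in 57.1% of cases (95% exact binomial interval 52.3 to 61.8%), against 51.6% of the other coding genes (50.2 to 52.9%). Their upstream gaps were longer, with a median of 576 bp (545 to 625 bp) against 446 bp (437 to 456 bp). A midpoint within 500 bp and outside the coding frames is more easily met where the gap is long, and the part of that in these values was not tested. The 65 peaks between genes on opposite strands each entered genes on both sides. The genes behind the 57.1% and its interval are thus not all independent. Every chromosome held members, from 1.76 per 100 kb on chromosome I to 4.21 per 100 kb on chromosome XIV.

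Ribosomal protein genes were the largest of the 11 gene lists among the genes served. Of the 138 cytosolic ribosomal protein genes, 36 (26.1%, 19.0 to 34.2%) were served, through 35 peaks, against 7.26% of all coding genes. The narrow promoter peaks were split by score into 4 groups of 91. Of the 35 peaks serving ribosomal protein genes, 25 were in the highest-scoring group and 1 in the lowest. These peaks made up 21 of the 50 highest-scoring narrow promoter peaks, against 35 of all 364. After RPS4B, RPS23A, RPL21A and RPS7A, the next were RPL30 at 2.36, RPS21B at 2.35 and RPL31A at 2.34. The lowest was RPS9B at 1.18, with a peak of only 222 bp. Both copies of a duplicated pair were served for RPS1, RPS7, RPS30 and RPL12, as with RPS7A at 2.39 and RPS7B at 2.30.

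Nuclear genes for respiration came next. Here 12 of 54 (22.2%, 12 to 35.6%) were served, among them ATP1 of the ATP synthase, MDH1 and FUM1 of the citrate cycle and 6 genes for subunits of cytochrome c oxidase, COX5A, COX5B, COX8, COX9, COX12 and COX26. Their scores were mostly lower than those of the ribosomal protein genes, with MDH1 at 2.12, ATP1 at 1.94, COX5B at 1.26 and COX12 at 1.16. Of the 54 genes of the G1/S and G2/M phases, 7 (13.0%, 5.37 to 24.9%) were served, including the cyclin genes CLN2, PCL1 and PCL2 and FKH1, a forkhead factor. The general stress list had 4 of 46 (8.70%), the cell wall list 3 of 45 (6.67%) and the amino acid list 5 of 68 (7.35%), all near the 7.26% over all genes. The 133 ribosome assembly factors had 5 (3.76%, 1.23 to 8.56%), and the 34 translation factors had 1, NIP1. No histone gene of 11 was served (0 to 28.5%), and glycolysis had FBA1 alone of 20 and the chaperones HSP30 alone of 37.

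The TopA library carried an Hmo1 peak at most of these promoters, and the share climbed with the score. Of the 364 narrow promoter peaks, 265 (72.8%, 67.9 to 77.3%) overlapped a peak of the TopA list by at least 1 bp, against 78% of all control peaks, 72.8% of the gene-body peaks and 97.4% of the wide domains. The share was 58.2% (47.4 to 68.5%) in the lowest-scoring group, then 61.5%, 81.3% and 90.1% (82.1 to 95.4%) in the highest. Wider peaks meet others more easily, and median width was 696, 817, 914 and 1262 bp over the same groups. The midpoint alone, which does not depend on the width of the member, lay in a TopA peak in 41.8%, 49.5%, 69.2% and 84.6% of the score groups from low to high. TopA peaks covered 34.7% of the genome, so the lowest group (31.5 to 52.6%) was near that level and the highest (75.5 to 91.3%) well above it.

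**Figure D2:**
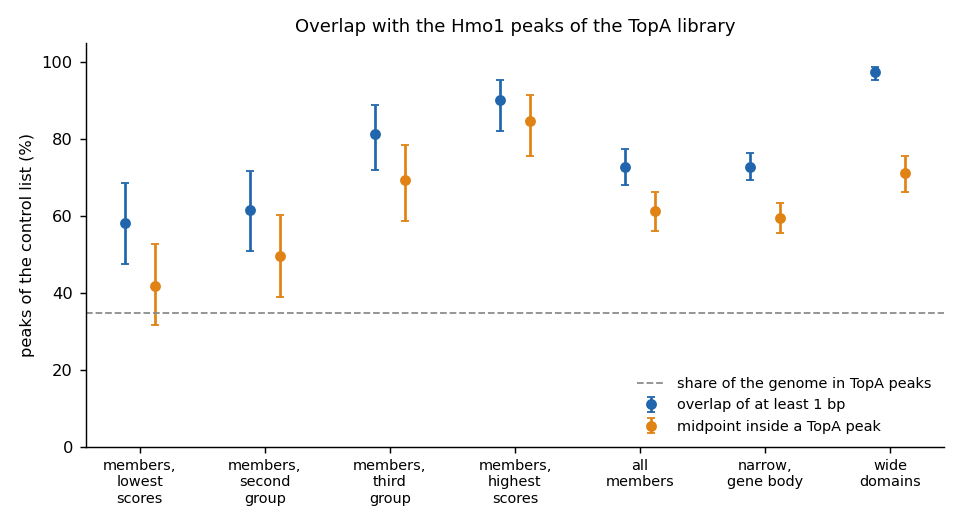
Share of peaks in the control list, in percent, that overlapped a TopA peak by at least 1 bp (blue) or had their midpoint inside one (orange), with 95% exact binomial intervals over peaks. The narrow promoter peaks climb with score to 90.1% and 84.6%, and the dashed line marks the 34.7% of the genome inside TopA peaks.

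Of the peaks serving ribosomal protein genes, 32 of 35 (91.4%, 76.9 to 98.2%) overlapped a TopA peak, against 233 of 329 (70.8%, 65.6 to 75.7%) of the other narrow promoter peaks. The 3 without one served RPL11A, RPS30A and RPL26B. At RPS4B the TopA peak covered 98.8% of the control peak, at RPS23A 88.9%, at UTP22 and ATG27 all of it, and at RPS7A 62.8%. Among the 265 overlapped peaks, the scores in the TopA and control lists had a rank correlation of 0.53, as a description of 2 libraries. The TopA score at RPS4B was 1.57 and at RPS23A 1.70, in a list whose highest score was 1.78. Scores of the lists were not compared with each other, since their scaling is unstated.

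The overlapping TopA peak had a median width of 2032 bp, and at 88 of the 265 it was 3000 bp or wider, a width that the rule bars for the control peaks, so the widths are not compared. Applied to the TopA list of 1933 peaks, the same rule on width and midpoint gave 301 peaks serving 347 genes. Of these genes 85 were shared, which is 24.5% of the TopA genes and 19.5% of the control genes. Of all 6002 coding genes, the control list served 7.26% and the TopA list those 347, so the shared shares were above these levels. Of the 138 ribosomal protein genes, 36 were served in the control list, 20 in the TopA list and 8 in both. Overlap of whole peaks by at least 1 bp and sharing of genes under the rule are unlike measures, so their shares are not compared.

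Segments joined in the Top2 ChIA-PET library met 138 of the narrow promoter peaks (37.9%, 32.9 to 43.1%), against 33.5% (29.9 to 37.4%) of the gene-body peaks and 68.2% of the wide domains. The midpoint lay in such a segment in 13.7% (10.4 to 17.7%) of the narrow promoter peaks, against 11.4% (9.06 to 14.2%) in gene bodies and 11.6% over the genome. Transfer RNA genes touched 22 of them (6.04%), against 3.97% of gene-body peaks, 11.5% of the other narrow peaks, 14% of the wide domains and 7.68% of all peaks, and none of the 35 peaks serving ribosomal protein genes (0 to 10%).

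Called H3 nucleosomes were scarce at the midpoints of the narrow promoter peaks and at the same place in other promoters. A nucleosome summit lay within 73 bp of 15 of the 364 midpoints in the top2-1;top1∆ TopA library (4.12%), of 28 in top2-1;top1∆ with the control plasmid (7.69%), of 21 in wild type with TopA (5.77%) and of 15 in wild type with the control plasmid (4.12%). In gene-body peaks the shares in the same libraries were 15.1%, 41.2%, 43.2% and 38.0%. Points 244 bp upstream of the other 5565 start codons had lower shares than the narrow promoter peaks, 3.22%, 5.55%, 2.96% and 2.34%. Relative to each library's genome mean, summits within 100 bp of the midpoint stood at 0.41, 0.34, 0.17 and 0.18, against 1.14, 1.62, 1.52 and 1.48 in gene bodies. The points upstream of the other start codons gave 0.27, 0.23, 0.12 and 0.11. With midpoints and points inside coding frames left out, the narrow promoter peaks (304) had 0.24, 0.18, 0.05 and 0.05 and the other promoters (4655) 0.20, 0.16, 0.07 and 0.07. The values at these peaks were thus close to those at other promoters with coding frames left out, and somewhat higher with them kept.

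**Figure D3:**
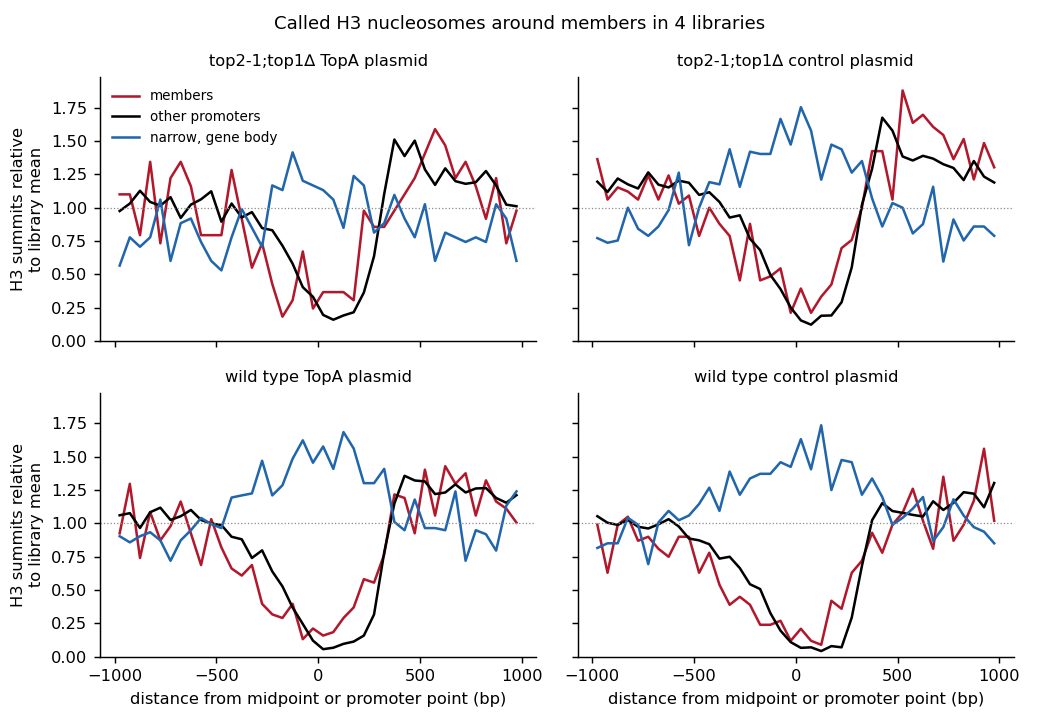
Called H3 summits in 50 bp bins, relative to the mean of the library (vertical axis), by distance in bp from the midpoint of narrow promoter peaks (red, coding side to the right), of narrow gene-body peaks (blue, in chromosome order) or from a point 244 bp before the other start codons (black), in 4 libraries. Red and black dip together at the centre in each library, while blue is above 1 there.

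Among these promoters the H3 calls varied with the peak score, but the score groups also differed in make-up. The highest-scoring group held 25 peaks serving ribosomal protein genes and the lowest-scoring group 1. The part of these genes, and of midpoints inside coding frames, in the H3 values by score was not tested. In the highest-scoring group no midpoint of 91 (0 to 3.97%) had a summit within 73 bp in top2-1;top1∆ with TopA and none in wild type with the control plasmid, against 7.69% of the lowest-scoring group in each of these libraries. In wild type with TopA the shares were 1.10% in the highest group and 9.89% in the lowest, and in top2-1;top1∆ with the control plasmid 3.30% and 7.69%. Called nucleosomes covered 0.377%, 2.23%, 1.84% and 0.475% of the 500 bp upstream of genes of the highest group, in the same order of libraries as before, against 6.90%, 11.8%, 8.88% and 7.02% in the lowest group. Across the 436 genes served, score and cover had rank correlations of -0.17, -0.24, -0.27 and -0.26, where all points share the 1 Hmo1 library. The 36 ribosomal protein genes served had a mean cover of 0%, 1.22%, 0.0222% and 0.383%, and the 102 not served 1.31%, 2.66%, 2.04% and 0.843%, so low cover was found in both.

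Distances varied between single promoters. At RPS4B the nearest summit was 616, 561, 781 and 719 bp from the midpoint, in top2-1;top1∆ with TopA, top2-1;top1∆ with control plasmid, wild type with TopA and wild type with control plasmid. At RPL21A the distances were 2076, 789, 754 and 903 bp. The nearest summit to YLR157W-D was 231, 62, 206 and 199 bp away, the closest among the 10 highest-scoring peaks in each library. Over all 364 peaks the median distance was 1124 bp (795 to 1399), 380 bp (357 to 421), 408 bp (385 to 453) and 457 bp (425 to 515). It was 938, 387, 401 and 446 bp at the points of other promoters, and 925, 98, 86 and 109 bp in gene-body peaks. The first library held the fewest calls, 10841, and had the longest median distance in each of these classes. The part of the number of calls in this was not tested.

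Between H3 libraries, promoters of the genes served differed much as those of other genes did. Mean cover of the 500 bp was 9.24% in top2-1;top1∆ and 4.76% in wild type, both with the control plasmid, a difference of 4.47 percentage points, and 3.85 points over the other genes (9.66% and 5.81%). With the TopA plasmid in top2-1;top1∆ it was 4.52%, against 9.24% with the control plasmid, and in wild type 6.44% with TopA, against 4.76% with the control plasmid. The top2-1;top1∆ TopA list held 10841 nucleosomes, the others 21862 to 25035, and its part in these differences was not tested. The median cover was 0% in every library, since 69.0 to 82.3% of the genes served had no called nucleosome in their 500 bp. For the other genes that range was 62.5 to 79.9%. Cover of the genes served was 0.42 to 1.24 points below that of other genes over 500 bp and slightly above it over 250 bp, so no direction is given.

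RNA of the genes served was spread widely, with many strongly expressed genes. The median level was 48.1 TPM in hmo1∆, 51.9 in top2-1, 50.3 in hmo1∆;top2-1, 52.6 in wild type at 37 °C and 14.2 in wild type at 28 °C, where TPM depends on the makeup of each library, so genes are compared between libraries by the scaled ratios given further on. The other coding genes had 38.0, 47.6, 42.8, 48.4 and 11.4 TPM in the same libraries. Among the genes served, 17.7 to 20.7% were in the top 10% of coding genes, against 9.17 to 9.40% of the other genes. Without ribosomal protein genes the share was 10.5 to 14%. In the highest-scoring group 33 to 36.6% were in the top 10%, and in the lowest 6.73 to 12.5%. Over 407 genes, score and TPM had rank correlations of 0.14 to 0.16, and of -0.01 to 0.02 over the 371 left without ribosomal protein genes.

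The 36 ribosomal protein genes served had median levels of 1116 TPM in hmo1∆, 1250 in top2-1, 1263 in hmo1∆;top2-1, 1417 in wild type at 37 °C and 454 in wild type at 28 °C. The 102 not served had 1230, 1312, 1448, 1458 and 495 TPM. RPS4B had 1021 TPM in hmo1∆, 1240 in top2-1, 967 in hmo1∆;top2-1 and 1531 in wild type at 37 °C. RPS23A had 520, 868, 725 and 1000 TPM in the same libraries. Nearly identical copies share reads in these pairs, so the split between paralogs is uncertain.

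For ratios between libraries, expected counts were scaled with TMM factors, and a gene was called higher or lower at a difference of at least 2-fold. Of the 436 genes served, 407 passed the filter of a mean of 20 counts, among 5599 coding genes. RNA came from whole cultures, so fewer cells in a given state and less RNA per cell cannot be told apart.

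In hmo1∆ over wild type at 37 °C, somewhat more of the genes served were past 2-fold in both directions than of all coding genes. In all, 43 (10.6%) were higher and 26 (6.39%) lower, against 6.84% and 4.59% of all coding genes tested. The median log2 ratio was 0.10 (0.02 to 0.21), with 227 of 407 above 0, against -0.01 (-0.03 to 0.00) over the other coding genes. Scaling to library totals or to TPM moved the median of all coding genes to -0.26 and -0.31, and the genes served then stood 0.10 and 0.08 above it. Their split then turned to 7.37% higher and 10.3% lower with library totals, and to 6.14% and 10.8% with TPM, against 4.36% and 8.93%, and 3.79% and 9.50%, of all coding genes. Score did not go with the ratio, with a rank correlation of 0.00 over 407 genes. In the highest-scoring group 12 of 102 were higher and 8 lower, and in the lowest-scoring group 10 of 97 were higher and 8 lower.

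The ribosomal protein genes served were within 2-fold in hmo1∆. None of 36 was 2-fold higher or lower, and the median log2 ratio was 0.05 (-0.12 to 0.32), against 0.25 (-0.08 to 0.42) for the 102 not served, of which 4 were higher and 5 lower. With library totals 1 of the 36 was 2-fold lower and with TPM 2 were, and the medians of those served were -0.21 and -0.29. Those under the highest scores had ratios of -0.26 (RPS4B), -0.61 (RPS23A), 0.05 (RPL21A) and -0.65 (RPS7A). RPS1B at -0.82 and RPL26B at 0.86 were the extremes. The medians of the served and the other ribosomal protein genes have intervals over genes that overlap, and these intervals hold no replicate error.

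Of the 10 highest ratios among the genes served, 4 were those of RTN2, CTT1, GPH1 and PGM2, the members of the general stress list that were served. RTN2, a reticulon-like protein, had 508 TPM in hmo1∆, 27.9 in top2-1, 166 in hmo1∆;top2-1 and 30.2 in wild type at 37 °C, a log2 ratio of 4.38 in hmo1∆ over wild type (4.19 to 4.60). CTT1, the cytosolic catalase, had 175, 25.4, 59.4 and 23.5 TPM in the same libraries and a log2 ratio of 3.21. GPH1, under one of the highest-scoring peaks, had 392, 71.6, 136 and 55.7 TPM and a log2 ratio of 3.13. In hmo1∆;top2-1 over wild type the log2 ratios of RTN2, CTT1 and GPH1 were 2.62, 1.49 and 1.44, and in top2-1 over wild type -0.08, 0.15 and 0.40, so these genes were past 2-fold in both hmo1∆ strains and not in top2-1. The others among the top 10 were TSA2, a thioredoxin peroxidase (3.44), CPP3 (3.18), GOR1, a glyoxylate reductase (2.67), GTT1, a glutathione transferase (2.44), MNC1 (2.43), GCY1, an aldo-keto reductase (2.41), and PGM2, the major phosphoglucomutase (2.08). All 4 stress-list genes served were at least 2-fold higher, and so were 39 of the 46 genes of the whole list, whose median was 2.44. Higher levels in this list were thus found with and without a narrow promoter peak. The gene lists were chosen with earlier results of these data known. Ratios of list genes, here and below, are therefore a description only.

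The 12 respiratory genes served were all above 0 in hmo1∆ over wild type (10 with library totals or TPM), with a median log2 ratio of 0.57 (0.43 to 0.96), equal to the 0.57 of all 54 genes of the list. COX26 had 214 expected counts in hmo1∆, 78 in top2-1, 373 in hmo1∆;top2-1 and 42 in wild type at 37 °C before scaling, and a scaled log2 ratio of 1.99 in hmo1∆ over wild type (1.54 to 2.54). COX5B, the subunit isoform used at low oxygen, had 733, 371, 504 and 289 TPM and 1.67, while its counterpart COX5A had 506, 382, 439 and 474 TPM and 0.43. COX26 and COX5B were the 2 of these 12 past 2-fold, under peaks of score 1.51 and 1.26.

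Of the 10 lowest ratios, those of YOL103W-B and NDJ1 were the lowest. NDJ1, a meiotic telomere protein, had 2.76 TPM in hmo1∆, 25.5 in top2-1, 2.64 in hmo1∆;top2-1 and 30.1 in wild type at 37 °C, a log2 ratio of -3.04 in hmo1∆ over wild type. The ratio was -3.24 in hmo1∆;top2-1 over wild type and -0.20 in top2-1 over wild type, so it was low in both hmo1∆ strains. The retrotransposon frame YOL103W-B, which shares the peak of NDJ1, had a log2 ratio of -3.39 on 3.72 counts in hmo1∆ and 44.6 in wild type, and YJR027W, another such frame, -1.67; both have near-identical copies and are uncertain. The rest of the lowest 10 were ULI1 (-2.65), CPP2 (-2.00), PRY2, a sterol-binding secreted protein (-1.69), SAM4, a homocysteine methyltransferase (-1.48), PGM1, the minor phosphoglucomutase (-1.46), TOS6 (-1.44) and FYV5 (-1.34). The ratios of the phosphoglucomutase genes thus lay on opposite sides of 0, PGM2 at 2.08 and PGM1 at -1.46.

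All 7 served genes of the G1/S and G2/M list were below 0 in hmo1∆ under every scaling tried, with a median of -1.12 (-1.32 to -0.40), and 4 were at least 2-fold lower. Over the whole list of 54 the median was -0.43 and 12 were lower. CLN2 had 24.9 TPM in hmo1∆, 29.2 in top2-1, 30.1 in hmo1∆;top2-1 and 77.8 in wild type at 37 °C. Its log2 ratios over wild type were -1.32, -1.37 and -1.21 in hmo1∆, top2-1 and hmo1∆;top2-1, so all mutants were lower. HOF1, a cytokinesis protein, had 3.21, 8.35, 2.75 and 9.78 TPM in these libraries and log2 ratios of -1.27, -0.19 and -1.64 in the mutants in that order, past 2-fold in the hmo1∆ strains. FKH1 had a log2 ratio of -1.12 and PCL1 one of -1.22. Of the ribosome assembly factors served, UTP22 (-0.49), TSR1 (-0.72), BUD21 (-0.74) and YTM1 (-0.76) were below 0 and the kinase gene RIO1 above it (0.51), none past 2-fold. HSP30, a membrane heat shock protein, was at 1.31 and CPA1 of arginine synthesis at 1.11, whereas the cell wall genes served and FBA1 stayed within 2-fold.

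The top2-1 allele alone left the genes served near wild type. In top2-1 over wild type at 37 °C 5 genes (4 with DESeq2 size factors or TPM, 6 with library totals) were higher (1.23%, against 0.714% of all coding genes) and 3 lower (0.737%, against 0.393%), and the median log2 ratio was 0.01 (-0.02 to 0.04). The lower genes were the serine deaminase gene CHA1 at -1.66, PCL1 at -1.61 and CLN2 at -1.37. The higher ones were DPI8 at 2.08, RGI1 at 1.68, BUD25 at 1.32, MNC1 at 1.10 and the bromodomain gene BDF2 at 1.00. CHA1, DPI8, RGI1, BUD25 and BDF2 were named after their values were seen, and MNC1 and BUD25 rest on few counts (9.92 and 14.3 in wild type). None of the ribosomal protein genes served was past 2-fold.

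In hmo1∆;top2-1 over wild type 27 of the genes served were higher (6.63%, against 3.98%) and 17 lower (4.18%, against 3.2%), with a median of 0.10 (0.04 to 0.13). In hmo1∆;top2-1 over top2-1 there were 23 higher (5.65%, against 3.25%) and 14 lower (3.44%, against 3.39%), with a median of 0.07 (0.02 to 0.14). In hmo1∆;top2-1 over hmo1∆ there were 6 higher (1.47%, against 0.768%) and 13 lower (3.19%, against 2.16%), with a median of -0.04 (-0.09 to 0.00). These ratios share libraries and are not independent of one another. With TPM the higher and lower shares were 3.93% and 5.16% over wild type, 3.69% and 4.67% over top2-1 and 1.47% and 1.97% over hmo1∆, against 2.16% and 4.47%, 2.04% and 3.89%, and 1.20% and 1.38% of all coding genes. With library totals they were 5.65% and 4.91% over wild type, 3.69% and 4.91% over top2-1 and 2.70% and 1.47% over hmo1∆, against 3.27% and 3.88%, 2.54% and 4.18%, and 2.07% and 1.39% of all coding genes. All 4 stress genes served (3 with library totals or TPM) were among the 13 lower ones in hmo1∆;top2-1 over hmo1∆, from -1.13 (PGM2) to -1.77 (RTN2). Of the ribosomal protein genes served, RPS7B at 1.18, RPL30 at 1.08 and RPS9B at 1.05 were 2-fold higher in the double mutant over wild type, and none was lower; with TPM none was past 2-fold.

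In wild type at 37 °C over wild type at 28 °C, 61 genes served were higher (15.0%, against 14.1%) and 80 lower (19.7%, against 15.3%), with a median of -0.11 (-0.21 to -0.01). With library totals 41.3% were higher and 5.65% lower, and with TPM 80.3% and 1.23%, against 45.7% and 4.14%, and 84.1% and 1.32%, of all coding genes, so the direction in this pair depends on the scaling. Temperature and cell-cycle state cannot be told apart in this pair, and the library at 28 °C had a growth protocol that contradicts its label. Of the ribosomal protein genes served 9 of 36 were lower and 3 higher, with a median of -0.49 (-0.84 to -0.18), and of those not served 35 of 102 were lower and 1 higher, with a median of -0.70; with library totals these medians turned to 0.41 and 0.20. RPL41B at -2.90, RPL33A at -2.31 and RPL43A at -2.15 were the lowest of those served, and RPS30A and RPS30B, at 1.63 and 1.60, the highest. HSP30, at 3.63, was among the highest of all genes served.

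**Figure D4:**
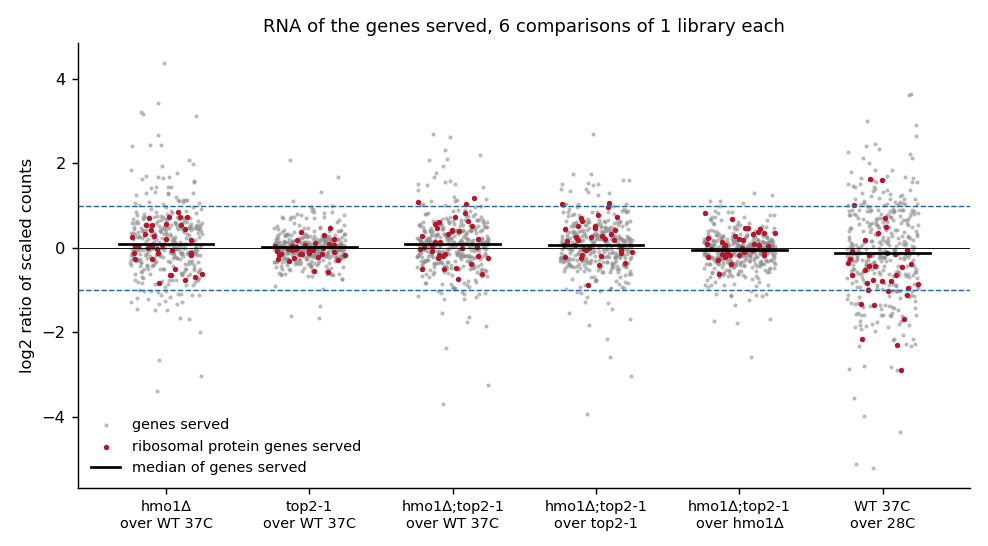
Log2 ratios of scaled expected counts (vertical axis) for the 407 genes served that passed the count filter, in 6 comparisons of 1 library each; ribosomal protein genes are red, black bars are medians of the genes served and dashed lines mark 2-fold. The spread is widest in hmo1∆ over wild type and in wild type at 37 °C over 28 °C, and narrow in top2-1 over wild type, while every median lies within 0.11 of 0.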

How the data were processed

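Per the file headers and the submitters' processing notes, the authors aligned RNA reads with STAR to R64 and deposited RSEM expected counts and TPM. The deposited H3 lists give a smoothed signal and a fuzziness score for each nucleosome, and the deposited Hmo1 lists a peak score; their callers are not given in the sources used here. In the case of Top2 ChIA-PET the authors deposited a tag count per pair of segments. The 6 ChIP inputs were not used here.

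Gene coordinates came from the R64 reference table, with strand from systematic names. Counts were scaled with TMM (edgeR 4.0.16, R 4.3.3; prior count 2), and DESeq2 1.42.0 size factors were an alternative. Overlaps and cover were computed in Python 3.11.15 and were checked on simulated data. Percentages carry 95% Clopper-Pearson intervals over peaks or genes, and medians order-statistic intervals. PCR reads are not independent molecules. Members and the 11 gene lists were chosen with earlier results of these data known; 2 list names found no gene. The genes named are those of the 10 highest-scoring peaks, the 10 highest and 10 lowest hmo1∆ ratios, the rule's limits, and served list genes; the comparison with other promoters, BUD25 and other extremes named were added after the data were seen.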

Additional observations from a re-analysis of the deposited data

Results flagged for a closer look

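For 2 of the genes served, the ratio for loss of HMO1 was past 2-fold in opposite directions with and without the top2-1 allele; the difference between the ratios was not tested, with 1 library in each group. BUD25 had 20.2 TPM in hmo1∆ and 6.98 TPM in wild type at 37 °C, a log2 ratio of 1.77, and 3.15 TPM in hmo1∆;top2-1 against 18 TPM in top2-1, a log2 ratio of -2.15, on 13.8 to 65.2 expected counts in these libraries. PCL1, a Pho85 cyclin, had 9.55 TPM in hmo1∆ and 28.3 TPM in wild type at 37 °C, a log2 ratio of -1.22, and 16.8 TPM in hmo1∆;top2-1 against 8.81 TPM in top2-1, a log2 ratio of 1.04. The ratios of BUD25 were past 2-fold with every scaling tried (1.41 to 1.77 and -2.27 to -2.15). That of PCL1 in hmo1∆;top2-1 over top2-1 was 0.95 with library totals and 0.86 with TPM, so its call as higher, and with it the opposite pair of calls, was lost under both. Opposite calls were found in 2 of the 407 genes served (0.491%), against 4 of all 5599 coding genes (0.0714%). Of the genes served, 16 (3.93%) were past 2-fold higher in both ratios and 11 (2.70%) past 2-fold lower in both, against 117 (2.09%) and 127 (2.27%) of all coding genes.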

How the results depend on the processing

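No paired analysis was possible because each group held 1 library. Of 244 alternative values for 33 results, 199 kept within the interval or range set for them, 41 moved, 10 of them with a change of sign, and the 4 differences in H3 cover over 250 bp reversed; the cause was not tested. Alternatives without midpoints in other coding frames or without ribosomal protein genes for levels, and the rule's limits applied to genes, scores and overlap, were chosen after seeing the data. The number of narrow promoter peaks was 188 and 604 with windows of 250 and 1000 bp and 217 with scores at or above the list median, serving 200, 830 and 265 genes; with a width limit of 1500 bp, 23 ribosomal protein genes were served. The median score was 1.38 (1500 bp limit), 1.37 (1000 bp window) and 1.64 (higher scores). TopA overlap was 58.2% when at least 50% of the peak had to be covered, 61.3% for the midpoint, 51.4% with TopA peaks at or above their median score, 65.9% under the 1500 bp limit and 81.1% for the higher scores; midpoints lay in a Top2 segment in 13.7%. The difference in H3 cover, genes served minus other genes, turned positive over 250 bp, at 0.174, 0.392, 0.872 and 0.43 points (top2-1;top1∆ with TopA and control plasmid, wild type with TopA and control plasmid), and for higher scores was -2.91, -3.35, -3.38 and -3.03 points in the same order.

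Scaling moved the median log2 ratios. With library totals and then TPM they were -0.16 and -0.23 for hmo1∆ over wild type, 0.04 and -0.03 for top2-1 over wild type, 0.03 and -0.07 for hmo1∆;top2-1 over wild type, -0.03 and -0.06 over top2-1, 0.14 and 0.09 over hmo1∆, and 0.79 and 1.83 for wild type at 37 °C over 28 °C. The 2-fold shares with library totals and then TPM were 7.37% and 6.14% higher and 10.3% and 10.8% lower in hmo1∆ over wild type, and 41.3% and 80.3% higher and 5.65% and 1.23% lower in wild type at 37 °C over 28 °C. In hmo1∆;top2-1, 3.93% were higher over wild type with TPM, 1.47% lower over hmo1∆ with library totals and 0.536% higher over hmo1∆ with a mean of 100 counts; its median over wild type was 0.03 for genes within 250 bp. The planned motif search in promoters was not run, since no promoter sequence was used here. Sequencing depth of the ChIP libraries is unknown from the lists.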
